A study of Mus musculus with 13 samples.

Results

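The genes described here are 10 neutrophil genes: Elane, Mpo, Prtn3 and Ctsg, whose products fill primary (azurophil) granules, Camp, Ngp, Ltf and Lcn2 of secondary (specific) granules, and S100a8 and S100a9, the subunits of calprotectin. They were found by symbol, through the GENCODE names of the Ensembl identifiers, and are 10 of 48709 genes in the count tables. All 10 passed the filter on low counts, as did 17403 genes in all. The members were chosen by their measured counts, since the class differed between the samples of this series. Every difference between groups in their levels is therefore given as a description, and nothing is supported with it.

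Neutrophils are made in bone marrow in stages, and each stage fills one kind of granule. Promyelocytes make the primary granule proteins: neutrophil elastase (Elane), proteinase 3 (Prtn3) and cathepsin G (Ctsg) are serine proteases, and myeloperoxidase (Mpo) makes hypochlorous acid. Myelocytes and metamyelocytes then make the secondary granule proteins: the cathelicidin antimicrobial peptide (Camp), neutrophilic granule protein (Ngp), lactoferrin (Ltf) and lipocalin 2 (Lcn2) bind iron, capture siderophores or attack microbes. Calprotectin is a cytosolic protein that binds zinc, manganese and calcium, and its transcripts stay abundant into the late stages. A circulating neutrophil holds the granule proteins but little of their messenger RNA, so these transcripts mark precursors more than mature cells.

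The 13 libraries are RNA-seq of laser-captured motoneurons, the spinal neurons that drive muscle, from mice carrying the SOD1-G93A transgene, a model of amyotrophic lateral sclerosis. All mice were 65 days old. Mice of the AAV-miR SOD1 group (n = 4) had been injected into the cerebral ventricles at postnatal day 2 with an adeno-associated virus (AAV) driving an artificial microRNA against human SOD1 in astrocytes. The AAV-miR ctrl group (n = 5) received the control vector, and non-injected littermates (n = 4) had neither. The transgene is shared by all 3 groups, so no healthy animal is compared. Each library came from a pool of 500 motoneurons of 1 mouse. Per the labels, the lumbar cord was frozen with its vertebrae around it, and vertebrae hold marrow. Motoneuron markers were present in every library (7 genes, summed level from 1376 to 5269 in CPM, counts per library scaled to a common total), beside those of glia, bone and blood cells. In such bulk samples fewer cells of a type and less RNA per cell cannot be told apart.

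Gene-assigned counts ran from 13.9 to 37.4 megacounts per library. The 4 libraries numbered 5 or 6 (AAV-miR ctrl replicates 5 and 6, non-injected replicates 5 and 6) were the deepest and are all controls. In these 4 libraries the alignments that HTSeq, the counting tool, tallied as not unique came to 79.7% to 96.2% of the gene-assigned counts. The share was 110.4% to 148% in the 9 libraries numbered 1 to 4. In 2 tables, both of replicates numbered 3 and labelled AAV-miR ctrl and non-injected, the column header named the other's group. The labels were followed, and with the 2 exchanged the counts of members at an unadjusted p under 0.05 given below were 2, 6, 0 and 7 in place of 2, 6, 0 and 6. With the exchange 7.64%, 7.1%, 1.45% and 9.91% of all genes were higher at this p.

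All coordinates are on GRCm38 with GENCODE models. Prtn3 (10:79874476-79883174) and Elane (10:79886247-79888215) are neighbours on the same strand of chromosome 10, Mpo lies at 11:87793581-87804413 and Ctsg at 14:56099881-56102574. Camp (9:109847379-109849617), Ngp (9:110419747-110423012) and Ltf (9:111019271-111042767) lie on chromosome 9 and Lcn2 at 2:32384633-32388252. S100a8 (3:90668978-90670035) and S100a9 (3:90692632-90695721) are a pair on chromosome 3. Exons of Mpo overlap the antisense gene Gm11505 and exons of Prtn3 overlap Plppr3 on the opposite strand. The strand setting of the counting is not given in the sources used here, so the counts of Mpo and Prtn3 are less certain than those of the other 8. Of the 50-base stretches of their transcripts, 9.46% of those of Mpo and 6.45% of those of Prtn3 also occur in transcripts of another gene, and 0% for each of the other 8 members.

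C/EBP factors and PU.1 are the transcription factors best known for driving granule genes, and 2 short forms of their motifs were searched on both strands in the 250 bases before each RefSeq start (GRCm38.p6). GAGGAA, the purine-rich core that PU.1 binds, was found in 7 of 10 members and in 23.3% of 32851 RefSeq promoters of this length. TTNNGNAA, a loose form of the motif that C/EBP factors bind, was found in 5 of 10 members and in 36.8% of the promoters. All 4 primary granule genes held GAGGAA and 0 of 4 held TTNNGNAA, while Ngp, Ltf and Lcn2 held TTNNGNAA 3, 2 and 1 times. Like the primary granule genes, Ltf and Lcn2 also held GAGGAA (1 time in each of these 2), and Camp held neither motif. With 4 genes a class and a share of 36.8% over all promoters, these counts describe the members only. In the members no match to one motif overlapped a match to the other. A match is a description of letters, not of a bound site.

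For comparison, 3 primary granule promoters and the 3 secondary granule promoters with a C/EBP-type match are shown 5′ to 3′ on the gene's strand, the last base next to the RefSeq start. Capitals mark every match to either motif, on either strand (TTCCTC is GAGGAA read from the other strand). The GENCODE models of Elane, Prtn3, Ngp, Ltf and Lcn2 start upstream of the RefSeq start. The whole windows of Prtn3 and Lcn2, and part of those of Elane, Ngp and Ltf, thus lie within the GENCODE gene. The regions are Elane chr10:79886062-79886311 (+), Prtn3 chr10:79879417-79879666 (+), Ctsg chr14:56102575-56102824 (-), Ngp chr9:110419558-110419807 (+), Ltf chr9:111019042-111019291 (+) and Lcn2 chr2:32387740-32387989 (-).
Elane: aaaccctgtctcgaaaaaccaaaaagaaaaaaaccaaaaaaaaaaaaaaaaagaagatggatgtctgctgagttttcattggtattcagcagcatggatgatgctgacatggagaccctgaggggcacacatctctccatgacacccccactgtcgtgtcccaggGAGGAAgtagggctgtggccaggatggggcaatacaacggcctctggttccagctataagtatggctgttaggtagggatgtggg
Prtn3: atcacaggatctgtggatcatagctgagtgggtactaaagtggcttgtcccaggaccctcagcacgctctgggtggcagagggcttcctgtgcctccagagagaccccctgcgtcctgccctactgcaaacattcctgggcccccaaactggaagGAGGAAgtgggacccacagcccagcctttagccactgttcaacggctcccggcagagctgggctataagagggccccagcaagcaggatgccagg
Ctsg: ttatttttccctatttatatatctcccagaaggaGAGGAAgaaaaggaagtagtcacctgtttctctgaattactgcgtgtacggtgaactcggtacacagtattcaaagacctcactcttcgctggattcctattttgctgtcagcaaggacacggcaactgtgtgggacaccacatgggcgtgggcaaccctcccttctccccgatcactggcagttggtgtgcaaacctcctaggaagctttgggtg
Ngp: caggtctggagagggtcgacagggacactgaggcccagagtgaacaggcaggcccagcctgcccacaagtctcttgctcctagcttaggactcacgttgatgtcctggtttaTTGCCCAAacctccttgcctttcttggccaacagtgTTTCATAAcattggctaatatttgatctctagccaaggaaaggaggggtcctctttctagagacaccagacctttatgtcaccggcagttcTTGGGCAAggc
Ltf: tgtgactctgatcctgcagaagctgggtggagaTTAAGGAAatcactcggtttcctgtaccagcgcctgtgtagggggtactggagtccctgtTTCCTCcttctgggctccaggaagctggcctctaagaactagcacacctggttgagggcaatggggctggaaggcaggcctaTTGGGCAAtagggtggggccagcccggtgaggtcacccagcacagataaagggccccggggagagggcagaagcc
Lcn2: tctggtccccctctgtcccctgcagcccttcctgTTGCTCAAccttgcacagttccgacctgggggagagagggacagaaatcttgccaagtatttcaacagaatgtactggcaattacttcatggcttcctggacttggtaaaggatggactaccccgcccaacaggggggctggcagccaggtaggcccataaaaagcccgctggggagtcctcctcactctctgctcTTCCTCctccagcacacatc

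In Elane and Prtn3 the GAGGAA match lies 85 and 95 bases before the start, the same part of 2 neighbouring genes, and in Ctsg it lies 216 bases before it. In Ngp the 3 C/EBP-type matches lie 138, 102 and 11 bases before the start, in Ltf 217 and 75 bases and in Lcn2 216 bases before it. The GAGGAA matches of Ltf and Lcn2, both on the other strand, lie 157 and 20 bases before it. S100a8 held 1 C/EBP-type and 2 GAGGAA matches and S100a9 held 2 C/EBP-type matches, so both calprotectin promoters hold a C/EBP-type match.

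The primary granule genes were highest in AAV-miR SOD1 replicate 1 and AAV-miR ctrl replicate 1. Elane measured 2227, 1022, 659 and 1519 CPM in AAV-miR SOD1 replicates 1, 2, 3 and 4 (CPM scaled by trimmed mean of M values, TMM). In AAV-miR ctrl replicates 1, 3, 4, 5 and 6 it measured 2209, 539, 663, 520 and 586 CPM, and in non-injected replicates 2, 3, 5 and 6 it measured 828, 572, 946 and 297 CPM. AAV-miR SOD1 replicate 3, the lowest of its group, was within the range of both control groups, and AAV-miR ctrl replicate 1 was as high as the highest AAV-miR SOD1 library.

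Mpo measured 2097, 1221, 682 and 1629 CPM in the AAV-miR SOD1 libraries in the same order. It measured 2420, 576, 527, 740 and 728 CPM in the AAV-miR ctrl libraries and 783, 657, 1507 and 428 CPM in the non-injected libraries. Non-injected replicate 5 thus held more Mpo than 2 of the 4 AAV-miR SOD1 libraries, and the groups overlapped. Prtn3 ranged from 311 to 1059 CPM in AAV-miR SOD1, from 159.8 to 1014 CPM in AAV-miR ctrl and from 100.2 to 318 CPM in non-injected mice. Ctsg had the lowest CPM of the 10, from 60.3 to 455 over the 13 libraries, with AAV-miR ctrl replicate 1 the highest. Non-injected replicate 6 was the lowest library for each of the 4 primary granule genes.

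The secondary granule genes followed another order of libraries. Camp measured 7504, 4169.6, 3012 and 4419 CPM in the AAV-miR SOD1 libraries. In AAV-miR ctrl it measured 6382, 1730.0, 1828, 949 and 1568 CPM, and in non-injected mice 2155, 2029, 1399 and 1503 CPM. Every AAV-miR SOD1 library was above every non-injected library and above 4 of the 5 AAV-miR ctrl libraries.

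Ltf measured 3163, 1478, 920.1 and 1453 CPM in AAV-miR SOD1, 1650.3, 606, 368, 761 and 847 CPM in AAV-miR ctrl, and 591, 553, 1136 and 1270.0 CPM in non-injected mice. The 2 non-injected libraries numbered 5 and 6 had more Ltf than the 2 numbered 2 and 3, the reverse of Camp. Ngp, the most abundant of the secondary granule genes by CPM, ranged from 3953 to 12315 in AAV-miR SOD1, from 2100 to 8227 in AAV-miR ctrl and from 2815 to 4241 in non-injected mice. Lcn2 ranged from 832 to 2707 CPM in AAV-miR SOD1, from 436 to 1531 in AAV-miR ctrl and from 575 to 698 in non-injected mice, so its AAV-miR SOD1 and non-injected values did not overlap. Non-injected replicate 6, lowest for the primary granule genes, was the highest of its group for Ngp and Ltf.

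The calprotectin genes had the highest counts of the 10. S100a8 measured 24383, 12454, 9473 and 13541 CPM in AAV-miR SOD1. It measured 20484, 6064, 6606, 2296 and 3300.2 CPM in AAV-miR ctrl and 7640, 5956, 2864 and 3244 CPM in non-injected mice. The 4 control libraries numbered 5 or 6 were the lowest of the 13 libraries, and AAV-miR ctrl replicate 1 was second only to AAV-miR SOD1 replicate 1. S100a9 ran parallel to S100a8: its count was 1.00 to 1.21 times that of S100a8 in all 13 libraries.

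**Figure D1:**
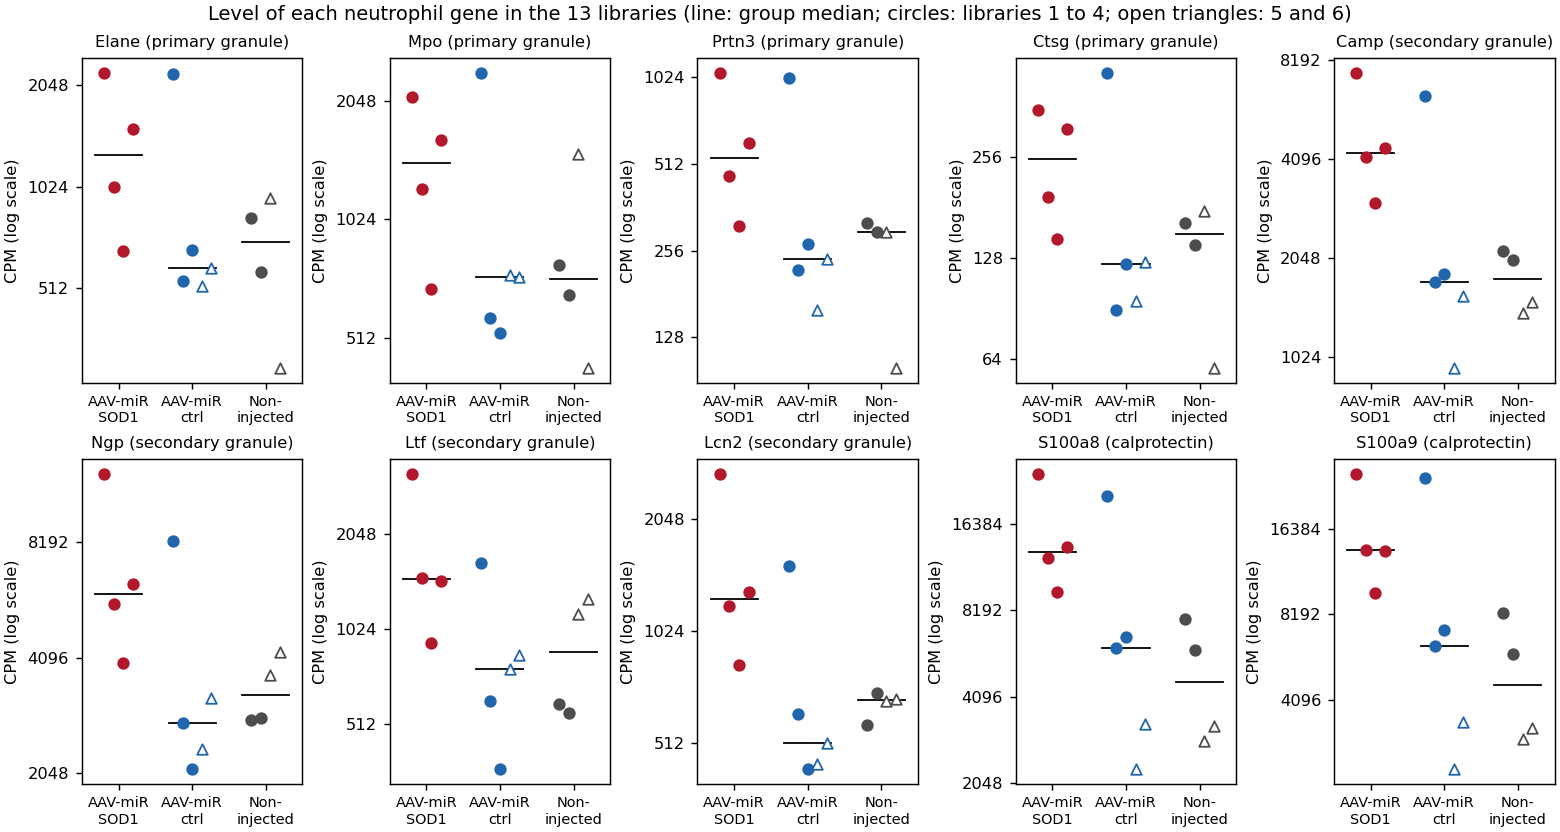
Level of each of the 10 genes in each library (TMM-scaled CPM, log scale, each panel with its own range), by group. Filled circles are libraries numbered 1 to 4, open triangles those numbered 5 or 6, and the line is the group median. AAV-miR ctrl replicate 1 sits among or above the AAV-miR SOD1 libraries in every panel, and the open triangles are the lowest points for S100a8 and S100a9 but not for Ltf.

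Per kilobase of the transcript that the consensus coding set (CCDS) holds, the order was the same at both ends in every library. S100a8 and S100a9 were the 2 highest, with medians of 13592 and 13895 CPM per kilobase over the 13 libraries, and they did not separate from each other. Ngp and Camp followed, with medians of 3019 and 2677 CPM per kilobase, Ngp above Camp in all 4 libraries numbered 5 or 6 and in AAV-miR SOD1 replicate 1 and below it in the other 8. Lcn2 (737), Elane (673), Ltf (335), Prtn3 (289.8) and Mpo (269) had lower medians in CPM per kilobase and changed places between libraries. Ctsg was the lowest in all 13 libraries, with a median of 145.6 CPM per kilobase. With union exon lengths in place of CCDS transcript lengths, the 4 at the top were the same genes in every library, while Lcn2, whose union of exons is 2623 bases against 915 for the CCDS transcript, moved down.

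Summed, the 10 genes took 8.51%, 4.90%, 2.76% and 4.32% of the gene-assigned counts of AAV-miR SOD1 replicates 1, 2, 3 and 4. They took 7.41%, 1.79%, 1.93%, 1.09% and 1.45% in the AAV-miR ctrl libraries and 2.27%, 1.97%, 1.68% and 1.41% in the non-injected libraries. The group means were 5.12% ± 2.43 (SD, n = 4), 2.73% ± 2.64 (SD, n = 5) and 1.83% ± 0.370 (SD, n = 4). All 4 AAV-miR SOD1 libraries were above all 8 controls other than AAV-miR ctrl replicate 1, which was above 3 of them.

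The design asks whether the astrocyte-directed microRNA, the injection or neither goes with a difference in the captured cells. Set against the 2 control groups averaged, the edgeR log2 fold changes were 0.81 ± 0.44 (SE) for Elane, 0.62 ± 0.44 for Mpo, 0.98 ± 0.47 for Prtn3 and 0.70 ± 0.42 for Ctsg. The secondary granule genes were at 1.18 ± 0.42 (SE) for Camp, 0.99 ± 0.38 for Ngp, 1.02 ± 0.39 for Ltf and 1.15 ± 0.35 for Lcn2. The calprotectin genes were at 1.28 ± 0.50 (SE) for S100a8 and 1.23 ± 0.53 for S100a9. All 10 were above 0, with a median of 1.00, where the median over all 17403 genes tested was -0.06.

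The fold changes against the 2 control groups share the AAV-miR SOD1 libraries. Against AAV-miR ctrl they ran from 0.50 (Mpo and Ctsg) to 1.09 (Lcn2) with a median of 0.88, and against non-injected mice from 0.74 (Mpo) to 1.62 (S100a9) with a median of 1.13. The median over all genes was -0.04 and -0.09. Between the control groups (AAV-miR ctrl over non-injected) they ran from -0.07 (Ltf) to 0.78 (S100a9) with a median of 0.43, and 9 of 10 were above 0. That sign rested on 1 library: without AAV-miR ctrl replicate 1 the median was -0.27 and 0 of 10 were above 0.

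With edgeR's quasi-likelihood test and Benjamini-Hochberg adjustment over 17403 genes, 0 of 10 members had an adjusted p under 0.05 in any comparison. Of all genes, 0 were higher at this adjusted p in each of the 4 comparisons. At an unadjusted p under 0.05, 2 of 10 (Ltf, Lcn2) were higher in AAV-miR SOD1 than in AAV-miR ctrl, where 5.99% of all genes were. The count was 6 of 10 against non-injected mice (background 9.36%), 0 of 10 between the control groups (1.38%) and 6 of 10 against both control groups (10.2%). By class, the 6 against both groups were 0 of 4 primary granule genes, 4 of 4 secondary granule genes and both calprotectin genes. Lower at this p were 0 of 10 in each of the 4 comparisons, where 8.54%, 11.5%, 2.24% and 12.1% of all genes were. Since these contrasts chose the members, nothing is read from these counts. DESeq2 called Camp against non-injected mice (3.17% of all genes higher) and Camp and Lcn2 against both groups (4.10%), and limma-voom with quality weights called Camp, Lcn2, S100a8 and S100a9 against both groups (5.37%). Each of these 2 tools called 0 members in the other comparisons, where DESeq2 called 0.534% of all genes higher against AAV-miR ctrl and 0.0115% between the control groups, and limma-voom 0%. At an unadjusted p under 0.05 the count against AAV-miR ctrl was 4 by DESeq2 (7.48% of all genes higher) and 10 by limma-voom (11.5%). It was 3 with DESeq2's size factors (6.49%) and 4 with no filter on low counts (5.86%). Against both groups the count was 10 by limma-voom (14.8%).

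Single libraries moved the counts at an unadjusted p under 0.05. Without AAV-miR SOD1 replicate 1 they were 0 of 10 in all 4 comparisons. Of all genes 2.28%, 5.5%, 1.43% and 5.01% were then higher, in the order above. Without AAV-miR ctrl replicate 1 the counts were 10 of 10 against AAV-miR ctrl (11.6% of all genes higher) and 9 of 10 against non-injected mice (10.6%). Against both groups the count was 10 of 10 (13.7%). Then 9 of 10, all but Mpo, had an edgeR adjusted p under 0.05 against both groups. The share of all genes at that adjusted p is not given here, and nothing is read from this count. The count against AAV-miR ctrl was 4 without AAV-miR SOD1 replicate 3 (9.26% of all genes). It was 1 without any of AAV-miR ctrl replicates 3, 4, 5 and 6 (4.01% to 5.55%). Against non-injected mice the count was 3 without non-injected replicate 5 (10.2%). It was 4 without non-injected replicate 3 (6.26%), non-injected replicate 6 (6.78%) or AAV-miR SOD1 replicate 4 (8.46%). In the libraries numbered 1 to 4 alone the counts were 0, 1, 0 and 2 in the order above, and the median fold change against both groups was 0.77. Of all genes 2.45%, 8.03%, 3.73% and 8.01% were higher in these libraries. All 10 fold changes of AAV-miR SOD1 against each control group were above 0 in every alternative run, a direction the choice of members bears on.

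The groups seldom separated completely. In 0 of 10 members was every AAV-miR SOD1 library above every AAV-miR ctrl library, where this held for 1.27% of all genes. Against non-injected mice it held for Camp, Lcn2, S100a8 and S100a9, 4 of 10 (5.90% of all genes), and without AAV-miR SOD1 replicate 3, the lowest of its group for all 10 genes, it held for 9. Against the 9 controls together it held for 0 of 10 (0.592%), and between the control groups for 0 of 10 (0.299%). Without AAV-miR ctrl replicate 1 the counts were 8 against AAV-miR ctrl, all but Elane and Mpo, and 4 against both groups. The share of all genes was not counted with a library left out, so nothing is read from those counts.

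**Figure D2:**
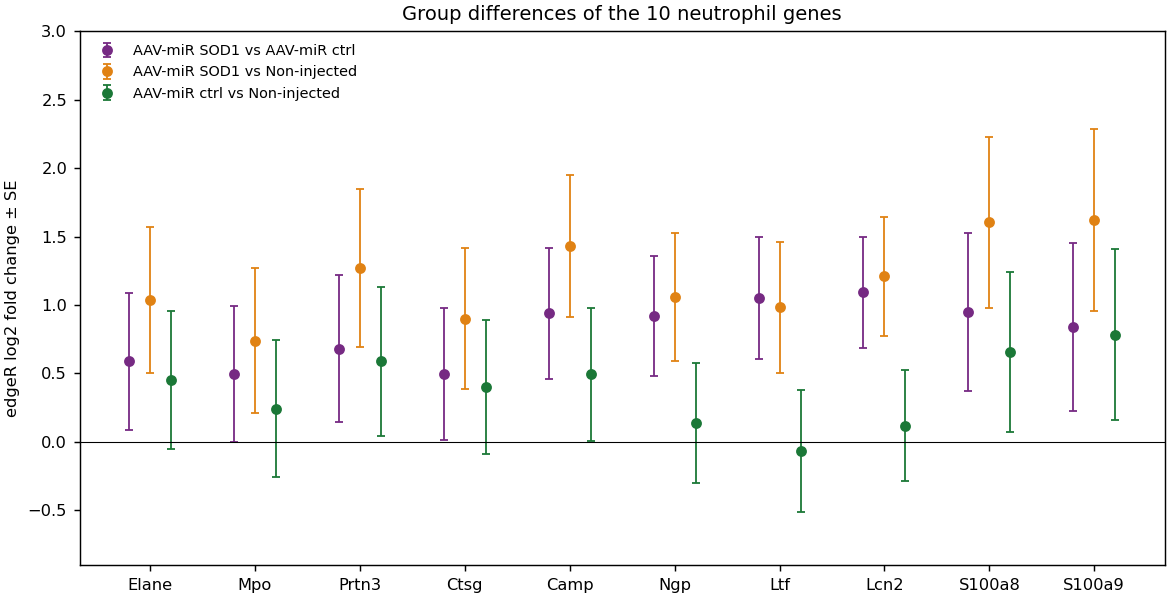
edgeR log2 fold changes (points) and their standard errors (bars) of the 10 genes in the 3 pairwise comparisons. All points against AAV-miR ctrl and against non-injected mice lie above 0, and those between the control groups run from -0.07 for Ltf to 0.78 for S100a9.

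Primary and secondary granule genes were then set against each other. A score was taken as the mean log2 CPM (prior count 2) of the 4 primary or the 4 secondary granule genes. The primary score was 9.40 ± 0.69 (SD, n = 4) in AAV-miR SOD1, 8.66 ± 0.92 (SD, n = 5) in AAV-miR ctrl and 8.40 ± 0.72 (SD, n = 4) in non-injected mice. The secondary score was 11.46 ± 0.67, 10.36 ± 0.79 and 10.38 ± 0.17 in the same order. AAV-miR SOD1 thus lay above the controls by 0.87 in the primary and 1.09 in the secondary score.

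The difference of primary minus secondary score, which sets genes of early against genes of later precursors, was -2.21, -2.13, -2.20 and -1.71 in AAV-miR SOD1. It was -1.44, -2.05, -1.44, -1.76 and -1.86 in AAV-miR ctrl and -1.49, -1.79, -1.43 and -3.20 in non-injected mice. The group means differed by -0.36 between AAV-miR SOD1 and AAV-miR ctrl and by -0.09 between AAV-miR SOD1 and non-injected mice. All 3 groups overlapped. The latter difference was -0.49 without non-injected replicate 6, 0.08 without non-injected replicate 2 and 0.10 without non-injected replicate 5, so it had no stable sign. Non-injected replicate 6 stood apart: its primary score of 7.38 was the lowest of the 13, while its secondary score of 10.58 was the highest of its group. AAV-miR SOD1 replicates 1, 2 and 3 had lower differences than every control except non-injected replicate 6. Genes of the same class shifted by unlike amounts with library number, as given below. Whether the score difference measures precursor stage was not tested.

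**Figure D3:**
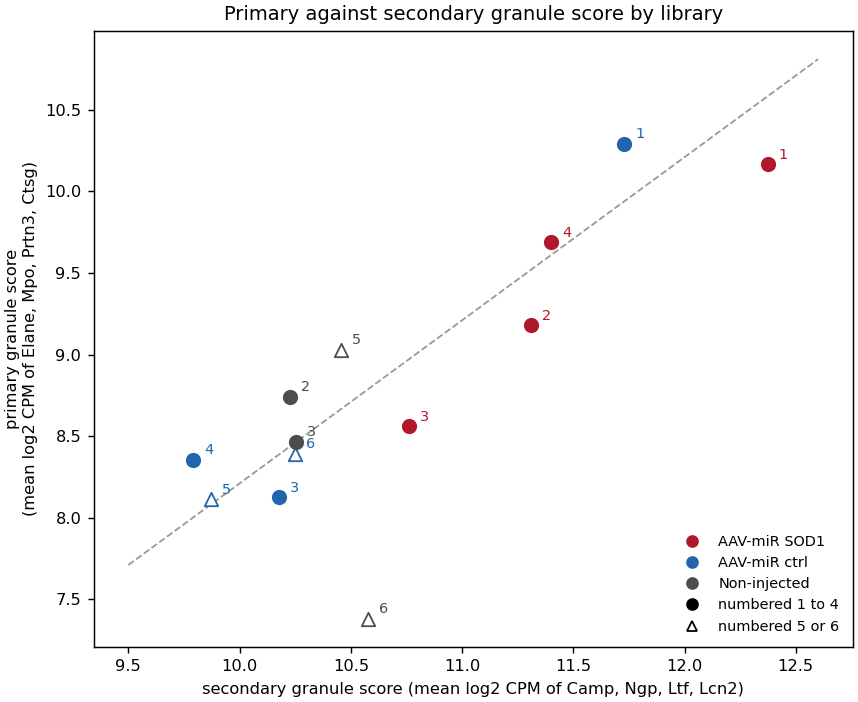
Primary against secondary granule score of each library (mean log2 CPM of 4 genes each), labelled by replicate number. The dashed line has a slope of 1 and passes through the median difference of the 13 libraries. Non-injected replicate 6 lies far below the line. AAV-miR ctrl replicate 1 lies above every AAV-miR SOD1 library in primary score (10.29, their highest 10.17) and within their range in secondary score (11.73).

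Across the 13 libraries, pairs within a class had higher median correlations than pairs between classes, with Camp as an exception. Pearson's r of log2 CPM ran from 0.88 to 0.98 (median 0.96) over the 6 pairs of primary granule genes and from 0.69 to 0.97 (median 0.90) over the 6 pairs of secondary granule genes. Between primary and secondary granule genes it ran from 0.59 to 0.91 (median 0.78, 16 pairs). S100a8 and S100a9 had r = 0.998 with each other, 0.64 to 0.89 (median 0.81) with the primary and 0.52 to 0.97 (median 0.80) with the secondary granule genes. Camp had r = 0.97 with both calprotectin genes and 0.91 with Prtn3, above its r of 0.88 with Ngp and 0.69 with Ltf of its own class. The values are a description over 13 points that share libraries, depth and scaling.

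The members also differed with library number, and not all alike. Among the 9 controls, the mean log2 CPM of the 4 libraries numbered 5 or 6 minus that of the 5 numbered 1 to 4 was -1.50 for S100a8 and -1.59 for S100a9. It was -0.88 for Camp, -0.95 for Prtn3, -0.61 for Ctsg, -0.60 for Elane and -0.30 for Lcn2. For Mpo it was -0.10, for Ngp 0.01 and for Ltf 0.58. For S100a8, S100a9 and Camp every control numbered 5 or 6 was below every control numbered 1 to 4. The share of all genes that separated in this way was not counted, so nothing is read from it.

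This order followed transcript length. S100a8, S100a9 and Camp have the shortest CCDS transcripts, of 486, 519 and 758 bases, and Ltf and Mpo the longest, of 2743 and 2750 bases. Spearman's rho between CCDS transcript length and the difference was 0.78 over the 10 members, 0.79 without AAV-miR ctrl replicate 1, and 0.60 over these 10 and 31 other listed neutrophil genes (41 genes). Genes of every kind were also binned by exon length, with the members left in, at a mean of at least 4 log2 CPM in the controls. Of 101 genes with under 800 bases of exon, 92.1% were lower in the libraries numbered 5 or 6, with a median difference of -0.57. Camp, S100a8 and S100a9 are among these 101 genes. The medians were -0.11 for 477 genes of 800 to 1500 bases, 0.13 for 1706 genes of 1500 to 3000 bases and 0.13 for 3048 genes of 3000 to 6000 bases. It was 0.03 for 2540 genes of 6000 bases or more. By union exon length rho was -0.03 over all 7872 such genes, against 0.81 over the 10 members and 0.52 over the 41 neutrophil genes by the same length.

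Within a library the ratio of 2 counts does not depend on depth or scaling. The count of S100a8 was 7.71 to 17.9 times that of Ltf in the 9 libraries numbered 1 to 4 and 2.52 to 3.90 times in the 4 numbered 5 or 6, with no overlap. The ranges for Camp to Ltf were 2.37 to 4.97 and 1.18 to 1.85, and those for Prtn3 to Mpo were 0.370 to 0.510 and 0.196 to 0.328, again with no overlap. Mpo to Ltf, which sets a primary against a secondary granule gene of nearly the same length, overlapped, at 0.663 to 1.47 and 0.337 to 1.33. Among the libraries numbered 1 to 4, Mpo to Ltf was 0.663, 0.826, 0.741 and 1.12 in AAV-miR SOD1 and 0.950 to 1.47 in the 5 controls. AAV-miR SOD1 replicate 4 was within that range and the other 3 were below it.

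No AAV-miR SOD1 library is numbered 5 or 6, so the shift with number was measured within the controls only. With only libraries numbered 1 to 4 in the fit, S100a8 had a log2 fold change against both control groups of 0.80 and S100a9 one of 0.74, against 1.28 and 1.23 with all 13 libraries. For Ltf it was 1.32, against 1.02. With these libraries alone the largest fold change of the 10 was thus that of Ltf and no longer that of S100a8.

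**Figure D4:**
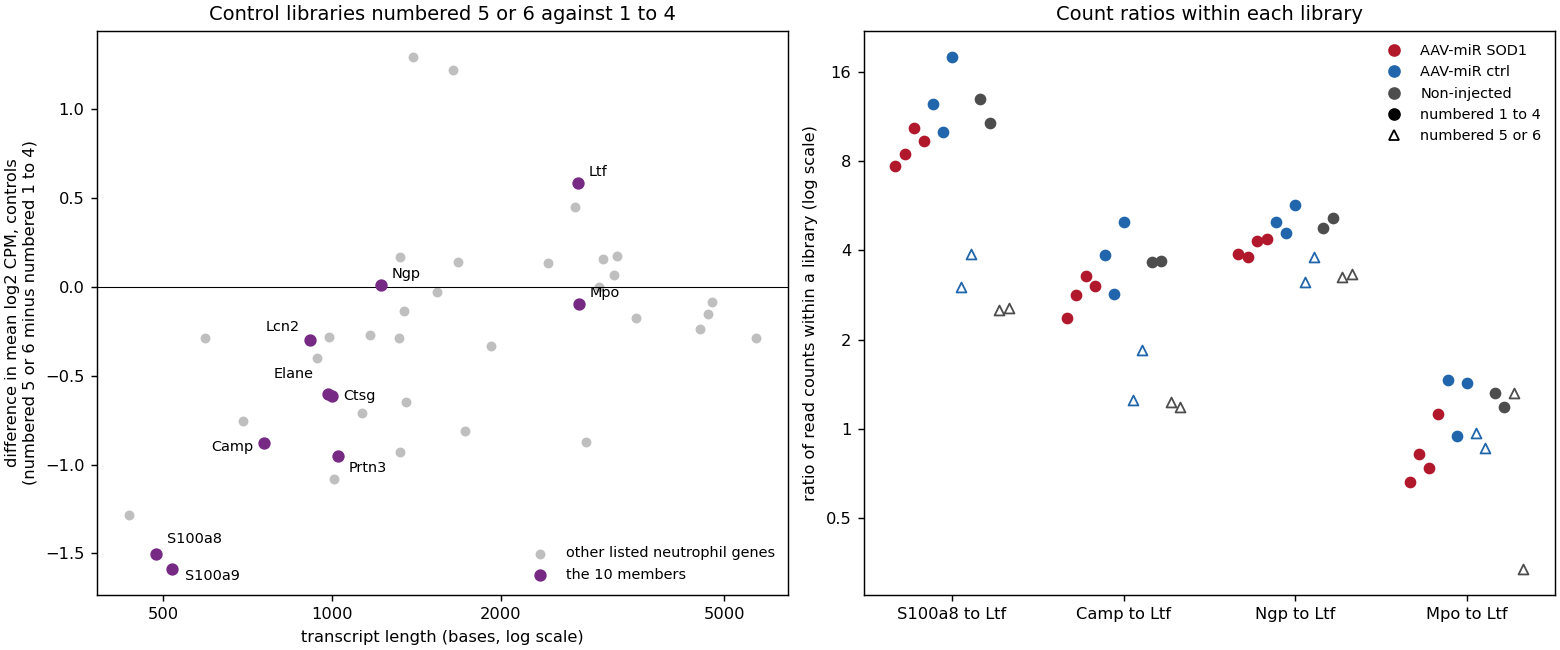
Left, difference in mean log2 CPM between control libraries numbered 5 or 6 and those numbered 1 to 4, against CCDS transcript length (log scale), for the 10 members and 31 other listed neutrophil genes. Right, ratios of read counts within each library (log scale), with symbols as in the legend: S100a8 to Ltf separates the open triangles (2.52 to 3.90) from the circles (7.71 to 17.9), and Mpo to Ltf does not.

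Other neutrophil genes showed similar differences. Against both control groups 10.2% of all genes were higher at an unadjusted p under 0.05. Of 7 further genes of primary granules and promyelocytes, 4 were higher in AAV-miR SOD1 than in both control groups at this p, and 0 were lower. The 4 were Lyz2 (lysozyme), Srgn (the granule proteoglycan serglycin), Serpinb1a (an inhibitor of elastase) and Ms4a3. Lyz2 and Serpinb1a had a higher r with the secondary score (0.97 each) than with the primary score (0.85 and 0.89). Srgn and Ms4a3 went the other way (0.80 and 0.81 against 0.94 each). Of 11 further genes of secondary granules and late precursors, 9 were higher, among them Chil3, a chitinase-like protein, at 1.09 ± 0.38 (SE, log2), and Cybb, the NADPH oxidase subunit, at 1.05 ± 0.32. Of 13 genes of tertiary granules and mature neutrophils, 12 were higher, among them Ly6g, the usual surface marker of mouse neutrophils, at 1.30 ± 0.36 and Retnlg at 1.19 ± 0.32. The exception was Mmp9, the gelatinase of tertiary granules, at 0.48 ± 0.42. Against AAV-miR ctrl alone the counts were 1 of 7, 5 of 11 and 7 of 13, and between the control groups 0 in each list, beside the backgrounds of 5.99% and 1.38% given above. Without AAV-miR SOD1 replicate 1 the counts against both groups were 1, 2 and 5 (5.01% of all genes). In the libraries numbered 1 to 4 alone they were 1, 6 and 6 (8.01%), and without AAV-miR ctrl replicate 1 they were 6, 9 and 12 (13.7%). Without non-injected replicate 3 the count of the 11 was 6 (8.68%). With adjustment over all genes 0 of these 31 passed in any comparison by edgeR. Without AAV-miR ctrl replicate 1, 5, 8 and 8 passed it against both groups. The share of all genes that passed without that library is not given here.

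Of 7 transcription factors of granulocytes, 3 were higher against both control groups at an unadjusted p under 0.05 (10.2% of all genes). The count was 0 without AAV-miR SOD1 replicate 1 (5.01%) and 5 without AAV-miR SOD1 replicate 3 (12.8%) or 4 (9.22%). It was 2 in the libraries numbered 1 to 4 alone (8.01%). Cebpe, which is required for secondary granules, was at 1.00 ± 0.37 (SE, log2), Gfi1, a repressor that favours the granulocyte fate, at 1.29 ± 0.44, and Myb, a factor of early precursors, at 0.85 ± 0.31. The other 4 did not pass: Cebpd was at 1.07 ± 0.62, Spi1, which encodes PU.1, at 0.78 ± 0.51, Runx1 at 0.62 ± 0.29 and Cebpa at 0.27 ± 0.45. The median levels of Cebpd and Cebpa were higher in non-injected mice (30.4 and 14.3 CPM) than in AAV-miR SOD1 (26.9 and 9.69 CPM). Across the 13 libraries Myb had r = 0.95 with the primary and 0.84 with the secondary score, and Cebpe had r = 0.86 with the primary and 0.94 with the secondary score. The r with the primary and the secondary score was lower for Spi1 (0.38 and 0.50), Cebpd (0.17 and 0.47) and Cebpa (0.08 and 0.36), and was 0.53 and 0.75 for Gfi1 and 0.69 and 0.58 for Runx1.

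Of 17393 genes compared, those with the pattern most like the primary score over the 13 libraries were Nkg7 (r = 0.99), Prss57 (0.97), Plac8 (0.96), Arpc4 (0.96) and Cst7 (0.95). Prss57 encodes a serine protease of neutrophil granules. Those most like the secondary score were Chil3 (r = 0.98), Cybb (0.98), I830127L07Rik (0.98), Ncf1 (0.98), an oxidase subunit, and Mcemp1 (0.98). The 2 groups of 5 share no gene. The median r of all genes was -0.04 with the primary and -0.02 with the secondary score.

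Markers of other cell types moved with the neutrophil genes. The summed level of 12 erythroid genes, led by the globins, was 21330 to 48422 CPM in AAV-miR SOD1. It was 3661 to 28505 CPM in AAV-miR ctrl and 5668 to 20565 CPM in non-injected mice. All 12 were higher against both control groups at an unadjusted p under 0.05 (10.2% of all genes). This also held without any 1 library and in the libraries numbered 1 to 4 alone. The r of the erythroid sum with the sum of the 10 members, both as log2 sums, was 0.89 over the 13 libraries and 0.81 over the 9 controls. Of 6 monocyte genes 3 were higher. Their summed level was 566 to 1197 CPM, 371 to 1278 CPM and 338 to 632 CPM in the same order of groups. Its r with the members was 0.91 over the 13 libraries and 0.84 over the 9 controls, where Spearman's rho was 0.57.

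The 7 motoneuron genes went the other way. Their summed level was 1376 to 2498 CPM in AAV-miR SOD1, 2000.2 to 4537 CPM in AAV-miR ctrl and 2221 to 5269 CPM in non-injected mice, with r = -0.74 against the members over the 13 libraries and -0.68 over the 9 controls. All 7 were lower against both control groups at an unadjusted p under 0.05, where 12.1% of all genes were, with 5 of 7 without AAV-miR SOD1 replicate 1 and 4 of 7 in the libraries numbered 1 to 4 alone.

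Of 6 progenitor and cycling-cell genes 3 were higher and 1 lower against both control groups, where 10.2% and 12.1% of all genes were. Their summed level had r = 0.84 with the members, against 0.78 for the 13 tertiary granule and mature neutrophil genes. Over the 9 controls these r were 0.70 and 0.60, but Spearman's rho was only 0.20 and 0.35. Of 10 B lineage genes 3 were higher (r = 0.59, Spearman's rho 0.79), with summed levels of 359 to 758, 235 to 590.5 and 92.6 to 355 CPM. Of 9 bone and cartilage genes 0 were higher, with sums of 8774 to 18258, 5723 to 30476 and 4361 to 21966 CPM in the 3 groups and r = 0.26 with the members, and of 6 megakaryocyte and platelet genes 1 was higher (r = 0.72). Of 9 eosinophil, basophil and mast cell genes 3 were higher (r = 0.42), and of 8 microglia genes 2 (r = 0.54). Of 6 astrocyte genes 0 were higher and 1 lower (r = -0.25), and of 6 oligodendrocyte genes 0 in either direction (r = 0.25). Over the 9 controls, however, r was 0.72 for the oligodendrocyte genes, with a Spearman's rho of 0.78. It was 0.47 for the microglia and 0.29 for the astrocyte genes, and 0.14 for those of eosinophils, basophils and mast cells. Il5ra, an eosinophil gene, was the only listed gene of another cell type with a count of 0, in some control libraries. With edgeR's adjustment over all genes 0 of the genes of these lists passed. The part of other cells, of the number of motoneuron reads and of library number in the members' differences was not tested.

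**Figure D5:**
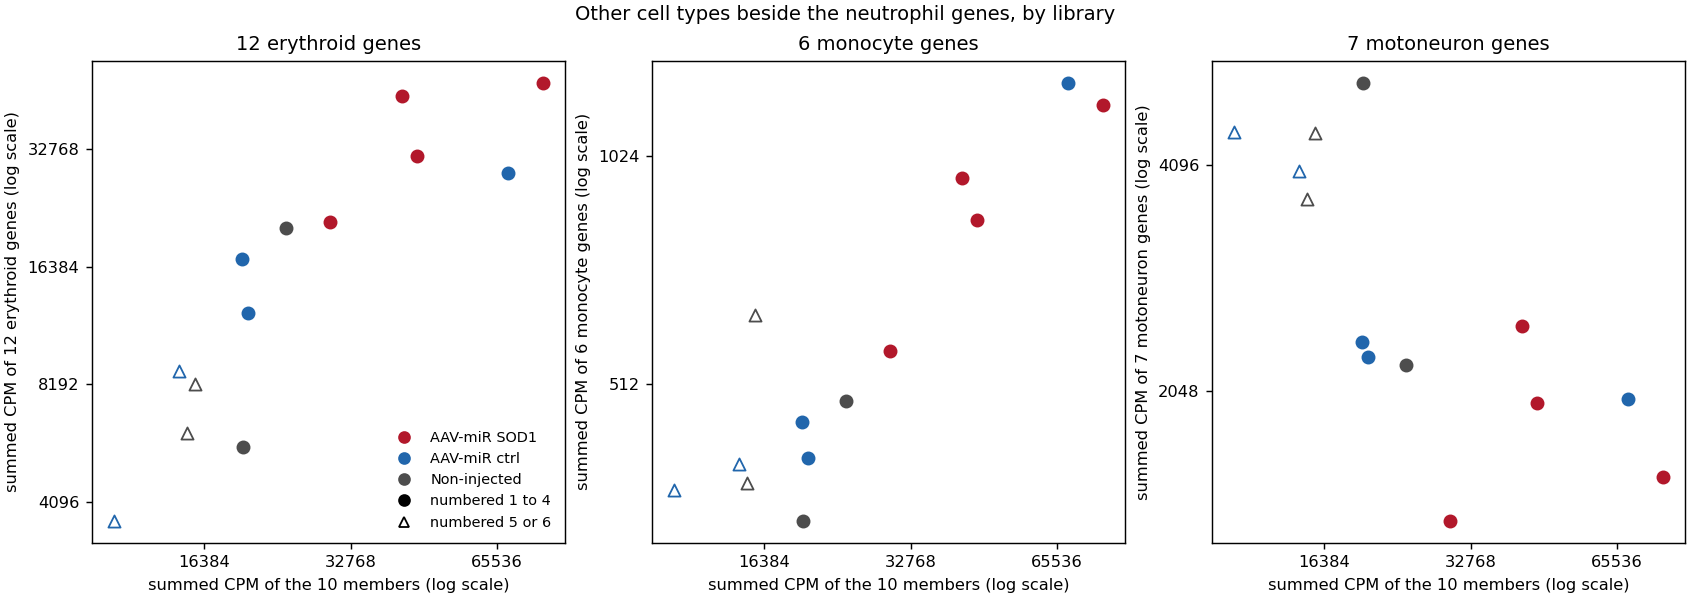
Summed CPM of 12 erythroid, 6 monocyte and 7 motoneuron genes against the summed CPM of the 10 neutrophil genes, by library (all axes log scale). Erythroid and monocyte sums are higher where the neutrophil sum is higher (r = 0.89 and 0.91), and the motoneuron sum is lower (r = -0.74).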

How the data were processed

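RNA from laser-captured motoneurons was amplified with the SMARTer Ultra Low kit and made into Nextera XT libraries, per the labels' protocols. What the authors deposited are unnormalised gene counts, 1 table a library. The authors used cutadapt 1.8, STAR 2.5.2b, HTSeq 0.6.1 and GRCm38, per the submitters' processing notes; annotation and strand setting are not given in the sources used here. HTSeq summary rows were left out. Symbols, lengths and positions came from GENCODE M21 and promoters from RefSeq. Of 48709 identifiers, 48349 had a symbol.

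Groups came from the titles. edgeR 4.0.16 in R 4.3.3 (filterByExpr, minimum count 10 and minimum total 15, TMM, quasi-likelihood F test) was fitted once on all 13 libraries over 17403 genes with Benjamini-Hochberg adjustment at 0.05. Alternatives were DESeq2 1.42.0, limma-voom with quality weights (limma 3.58.1), other scalings, no filter, a prior count of 0.5, the header exchange, libraries 1 to 4 alone, the replicate number as a block, and leaving out each library in turn. The fits were tested on simulated counts. Members and lists were chosen with earlier results of these data known. The rule was to name, beside the members, the 5 genes of highest mean CPM of each other neutrophil list, the 3 of each remaining list and the 5 most like each score; Gfi1, Cebpa, Cybb and Il5ra were named beyond it after their values were seen. Libraries are separate mice per the labels' protocols. Depth was 13.9 to 37.4 megacounts, so 3 counts are 0.0749 to 0.225 CPM.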

Additional observations from a re-analysis of the deposited data

Results flagged for a closer look

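Of 42 groups of 4 or 5 libraries checked for a library far from the others, 10 had one. Chance would give about 2.1 if the groups were independent, which they are not: the genes correlate, the scores and the share are built from them, and the class was chosen because it differed between samples. In 8 of these AAV-miR ctrl replicate 1 was the highest of its 5 libraries. On the log2 CPM scale it stood at 11.11 for Elane (next 9.37), 11.24 for Mpo (next 9.53), 9.99 for Prtn3 (next 8.07), 8.83 for Ctsg (next 6.97) and 10.58 for Lcn2 (next 9.26). Its primary score was 10.29 (next 8.39), its secondary score 11.73 (next 10.25) and its summed share of counts 7.41% (next 1.93%). Non-injected replicate 6 was the lowest of its 4 libraries for Prtn3, at 6.65 log2 CPM where the next was 8.21. AAV-miR SOD1 replicate 4 had the highest primary minus secondary score of its group, -1.71 where the next was -2.13.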

How the results depend on the processing

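Score differences moved by less than the pooled SD of the groups compared under the alternatives run, and the 10 members' fold changes against both control groups kept their direction. The primary score difference against both groups ranged from 0.45 to 1.15 and the secondary from 0.79 to 1.32. Between the control groups the secondary score difference ranged from -0.36 to 0.32. Counts of all genes at an unadjusted p under 0.05 moved more. For AAV-miR SOD1 against AAV-miR ctrl (2529 genes) they were 891 in the libraries numbered 1 to 4, 3814 by limma-voom and 1192 to 3986 leaving out 1 library. For AAV-miR ctrl against non-injected (629) they were 1601 with no filter and 516 to 1008 leaving out 1 library. Leaving out 1 library gave 2431 to 4146 against non-injected (3635) and 2201 to 4797 against both groups (3870). Replicate numbers did not pair the libraries (correlations of same-numbered deviations from -0.19 to 0.24). With the replicate block the counts were 1535 against AAV-miR ctrl, 1441 against non-injected and 1927 against both groups. The members at an unadjusted p under 0.05 were then 5, 2, 0 and 6 of 10 in the order of the report. The shares of all genes higher were 5.41%, 4.96%, 0.862% and 6.4% in that order. Between the control groups the members' median log2 fold change was then -0.16 in place of 0.43. The cause of these moves was not tested. At this depth all 10 members were far above the level of 3 counts in each library.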

Other observations

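Genes of other granulocytes varied between libraries, and not all alike. The summed level of 9 eosinophil, basophil and mast cell genes was highest, at 616 CPM, in non-injected replicate 5. Most of this 616 CPM was Prg2 (296 CPM), the major basic protein of eosinophil granules, and Epx (178 CPM), eosinophil peroxidase. These 2 reached at most 75.7 and 12.1 CPM in AAV-miR SOD1. The 10 neutrophil genes took 1.68% of counts in non-injected replicate 5. It had the lowest calprotectin sum of its group (5847 CPM) but the highest primary score (9.03). The group medians of the sum were 356 CPM in AAV-miR SOD1, 113 CPM in AAV-miR ctrl and 134 CPM in non-injected mice. AAV-miR SOD1 replicate 3 had the lowest sum of the 13 libraries, at 58.2 CPM, where the other 3 of its group had 348 to 458 CPM. Across the 13 libraries r between the log2 sums of these genes and of the 10 members was 0.42. By gene, r with the primary score was 0.34 for Prg2 and 0.24 for Epx, against 0.75 for the mast cell protease Cpa3, 0.69 for the basophil proteases Prss34 and Mcpt8 and 0.73 for Ear2. These r are descriptions over the same 13 libraries, and Epx, Cpa3 and Ear2 were named after their values were seen.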
